A study of Mus musculus with 48 samples.

Results

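The Cyp3a genes encode the cytochrome P450 enzymes of subfamily 3A, and 8 of them were followed across 48 mouse livers. The members were the rows of the expression table named Cyp3a11, Cyp3a13, Cyp3a16, Cyp3a25, Cyp3a41a, Cyp3a41b, Cyp3a44 and Cyp3a59, out of 49315 rows in all. Poly(A) RNA was sequenced from livers of C57BL/6J mice of both sexes. The mice ate a high-fat diet (HFD) or a low-fat diet (LFD) and were given, each week for 12 weeks, a mixture of dioxin-like compounds or its vehicle. Per dose the mixture contained 10 ng/kg TCDD, 80 ng/kg PeCDF and 140 ng/kg PCB126, 3 agents known to activate the aryl hydrocarbon receptor. Crossing these factors gave 8 groups of 6 livers: exposed and vehicle females on HFD, exposed and vehicle females on LFD, and the same groups of males. All animals shared 1 inbred strain, and the labels used here state no age.

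Enzymes of this subfamily oxidise a wide range of drugs, steroids and bile acids in hepatocytes. Their transcription is known to respond to the nuclear receptors PXR (Nr1i2) and CAR (Nr1i3), which bind pairs of short repeated sites near their targets as partners of RXR (Rxra). In mouse liver several members are also known to depend on sex, through the sex-specific rhythm of growth hormone and its mediator STAT5. Cyp3a11 is the member most used as a marker of PXR activity and as the counterpart of human CYP3A4.

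Levels are given as TPM, a relative transcript abundance corrected for gene length and scaled to 1000000 in each library, so that members can be compared with each other. Differences are log2 changes of TPM + 1 from a limma model of all 48 libraries, with p-values adjusted by the Benjamini-Hochberg method over the 15820 genes that reached 1 TPM in at least 6 libraries. A change was called at an adjusted p under 0.05. All 8 members passed this filter, but not in the same way. Cyp3a11, Cyp3a13, Cyp3a25 and Cyp3a59 reached 1 TPM in all 48 libraries. Cyp3a16, Cyp3a41a, Cyp3a41b and Cyp3a44 reached it in all 24 female libraries but in only 5, 12, 0 and 4 of the 24 male ones, so these 4 are called the female-restricted members below.

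From 13180 to 14713 genes reached 1 TPM per library, and Xist and Ddx3y fitted the labelled sex in all 48. The hepatocyte genes Alb, Apoa1, Ttr, Apob, Fga and Serpina1c summed to between 57590 and 149752 TPM. Skeletal muscle transcripts were highest in 3 libraries. The sum of 12 muscle genes was 19998 TPM in exposed HFD male 6. It was 7611 TPM in vehicle LFD female 3 and 1661 TPM in exposed LFD female 3, against at most 660 TPM in the other 45. Results that change without these 3 libraries are given with that value. Vehicle LFD males 4 and 5 came next with 660 and 312 TPM, above the 113 TPM of vehicle HFD female 1. Both males were kept when the 3 libraries were left out. In bulk liver RNA, fewer cells of a type and less RNA per cell cannot be told apart.

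On the GRCm38 build, 7 members lie within 768 kb of chromosome 5, in the span chr5:145345279-146113287 that also holds Cyp3a57 and the pseudogene Cyp3a63-ps. Cyp3a16, Cyp3a41b, Cyp3a41a and Cyp3a44 are neighbours there in that order, followed by Cyp3a11, Cyp3a25 and Cyp3a59. Cyp3a13 lies alone, 7424 kb away at chr5:137892932-137921619. The 4 female-restricted members were thus next to each other, with members of both sexes on 1 side.

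**Figure D1:**
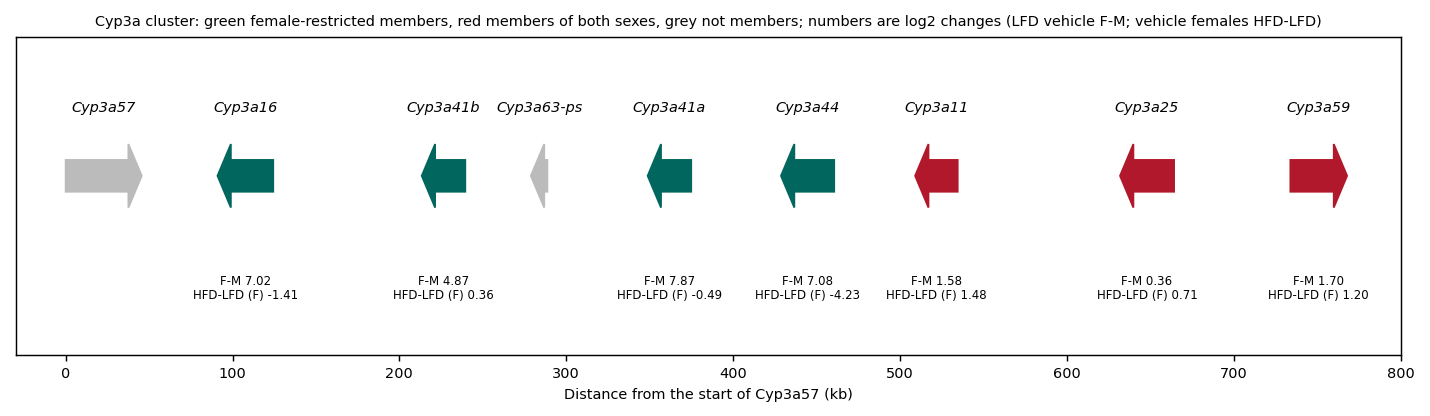
Map of the Cyp3a cluster, with distance from the start of Cyp3a57 in kb on the horizontal axis and arrows in the direction of transcription. Under each member stand its log2 changes, female minus male on LFD with vehicle and HFD minus LFD in vehicle females: the green female-restricted members have sex differences of 4.87 to 7.87, against 0.36 to 1.70 for the red ones.

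Copies in this cluster are close in sequence, which bears on how far each value stands for 1 gene. The reference transcripts of Cyp3a41a and Cyp3a41b were 99.9% identical, and 88.4% of the 100-base windows of Cyp3a41a also occurred in Cyp3a41b. The split of TPM between these 2 genes rests on how the authors assigned shared reads, a step the labels do not describe, so their separate values are uncertain. Cyp3a25 and Cyp3a59 transcripts were 97.0% identical but shared only 5.6% of such windows. The other members shared at most 5.4% of their windows with any Cyp3a gene.

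The sequences before the start sites are shown for 5 members that carry the contrasts described below: Cyp3a11, Cyp3a25 and Cyp3a59, which were higher on HFD in both sexes, and Cyp3a41a and Cyp3a44, 2 female-restricted neighbours that differed in their response to diet. They are taken from RefSeq on GRCm38.p6, 5′ to 3′ on the gene's strand, and end at the annotated start of transcription. For Cyp3a11 only the bases before the more distal GENCODE start are shown. Capitals mark the nuclear receptor sites AGGTCA and AGTTCA, read on either strand (TGACCT and TGAACT on the other).
Cyp3a11 (chr5:145879965-145880104, minus strand): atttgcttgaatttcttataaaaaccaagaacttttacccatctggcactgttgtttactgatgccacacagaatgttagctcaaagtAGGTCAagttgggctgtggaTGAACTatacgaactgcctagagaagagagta
Cyp3a25 (chr5:146009619-146009868, minus strand): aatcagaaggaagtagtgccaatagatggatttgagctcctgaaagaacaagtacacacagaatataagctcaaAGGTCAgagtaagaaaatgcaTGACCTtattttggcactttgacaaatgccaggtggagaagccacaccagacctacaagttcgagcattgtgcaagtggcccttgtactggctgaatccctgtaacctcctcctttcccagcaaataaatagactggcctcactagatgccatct
Cyp3a59 (chr5:146079008-146079256, plus strand): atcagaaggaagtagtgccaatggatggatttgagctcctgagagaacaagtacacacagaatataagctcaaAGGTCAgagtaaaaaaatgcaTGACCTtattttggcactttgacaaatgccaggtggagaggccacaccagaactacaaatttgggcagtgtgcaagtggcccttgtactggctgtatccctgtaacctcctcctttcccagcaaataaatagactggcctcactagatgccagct
Cyp3a41a (chr5:145720137-145720386, minus strand): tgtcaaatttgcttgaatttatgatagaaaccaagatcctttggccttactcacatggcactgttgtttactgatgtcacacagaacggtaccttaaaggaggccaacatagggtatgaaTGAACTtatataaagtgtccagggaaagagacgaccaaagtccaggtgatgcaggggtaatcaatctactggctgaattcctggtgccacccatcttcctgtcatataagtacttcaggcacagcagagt
Cyp3a44 (chr5:145805875-145806124, minus strand): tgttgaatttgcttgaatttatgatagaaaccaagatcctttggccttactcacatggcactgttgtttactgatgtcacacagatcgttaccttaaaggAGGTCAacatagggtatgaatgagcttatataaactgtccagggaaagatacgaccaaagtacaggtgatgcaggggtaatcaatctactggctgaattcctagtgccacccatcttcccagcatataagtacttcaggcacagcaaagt

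All 8 members had a RefSeq promoter. In the 250 bases before the RefSeq start, AGGTCA occurred on either strand in 4 of 8 members (Cyp3a11, Cyp3a25, Cyp3a44 and Cyp3a59) and in 14.0% of the 32851 promoters of the table. AGTTCA occurred in 3 of 8 (Cyp3a11, Cyp3a41a and Cyp3a41b) and in 11.8% of all promoters. TATAA was found in 7 of 8 members, all but Cyp3a13, and in 22.8% of all. The STAT5 motif TTCNNNGAA and the core GCGTG of the dioxin response element were found in 0 of 8 members, against 7.0% and 28.2% of all promoters. These are matches of letters within this window only. Over these 250 bases Cyp3a41a and Cyp3a41b were 99.6% identical, Cyp3a25 and Cyp3a59 were 94.8% identical, and Cyp3a41a and Cyp3a44 were 94.4% identical. Matches in such near copies are not separate observations, so the member counts above cannot be weighed against the shares of all promoters. Cyp3a25 and Cyp3a41a were 49.8% identical.

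The family as a whole was lowest in males on LFD. Summed over the 8 members, the mean level was 2620 ± 218 TPM in exposed and 2620 ± 385 TPM in vehicle females on HFD, 1763 ± 151 TPM in exposed and 1929 ± 398 TPM in vehicle females on LFD, 1814 ± 292 TPM in exposed and 1701 ± 211 TPM in vehicle males on HFD, and 699 ± 108 TPM in exposed and 616 ± 158 TPM in vehicle males on LFD (SD, n = 6 each). The makeup of this sum differed as much as its size. In vehicle females the female-restricted members made up 15.3 ± 3.5% of it on HFD and 43.4 ± 13.4% on LFD, against 0.101% and 0.276% in vehicle males on the same diets. In vehicle males Cyp3a25 was the leading member on LFD, with 59.5 ± 6.3% of the sum, and Cyp3a11 on HFD, with 50.1 ± 4.0%.

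**Figure D2:**
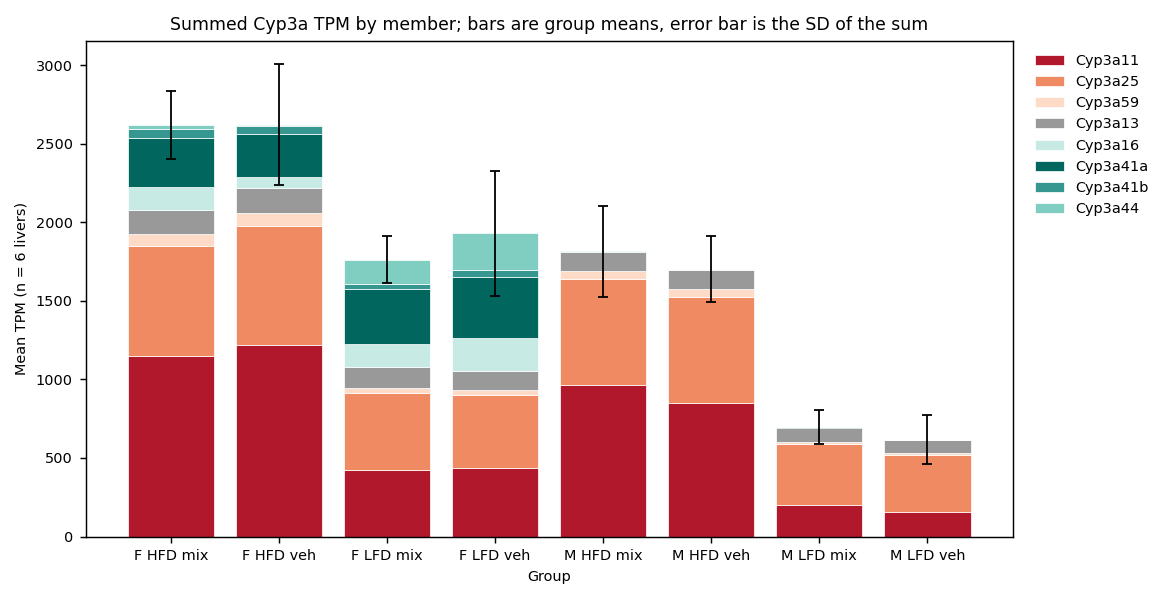
Mean TPM of the 8 members stacked by group (n = 6 livers), with the SD of the sum as error bar. Females on HFD stand highest at 2620 TPM and vehicle males on LFD lowest at 616 TPM, and the green segments of the female-restricted members are visible only in females.

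Mean levels of the members ranged from Cyp3a11, with a mean of 675 TPM over 48 libraries, to Cyp3a41b, with 22.4 TPM. Cyp3a25 followed Cyp3a11 with 563 TPM, then Cyp3a41a with 167, Cyp3a13 with 124, Cyp3a16 with 71.1, Cyp3a44 with 53.8 and Cyp3a59 with 43.4 TPM. The spread between livers of 1 group also differed: the coefficient of variation of Cyp3a13 lay between 11.8% and 22.3% in every group. In females that of Cyp3a11 lay between 15.6% and 18.4%, while it reached 72.2% for Cyp3a16, 75.2% for Cyp3a44 and 89.2% for Cyp3a41b. In males that of Cyp3a11 lay between 16.2% and 53.1%, with the highest value in vehicle males on LFD.

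**Figure D3:**
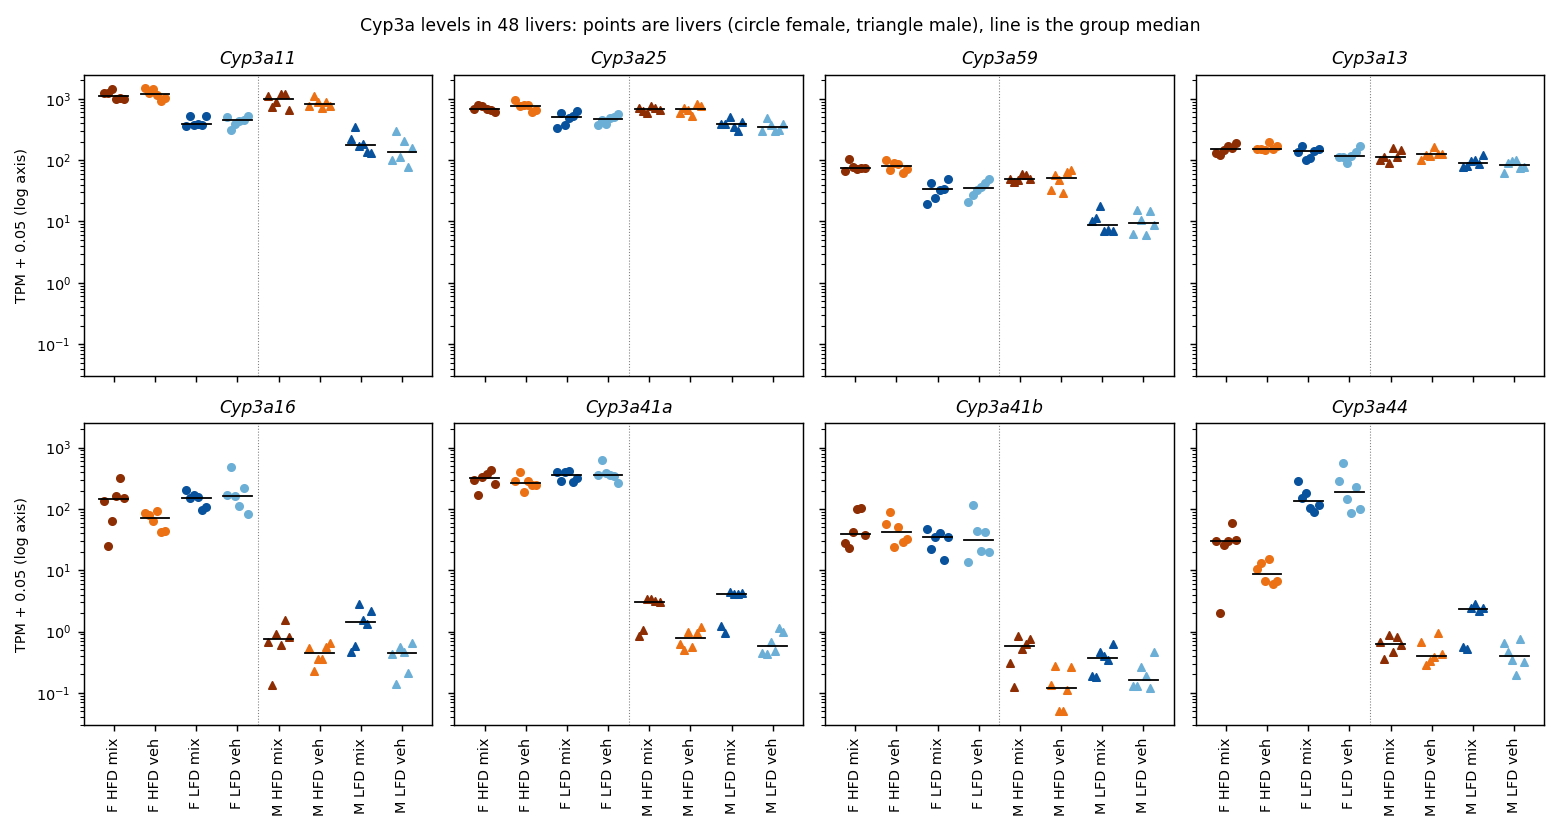
TPM + 0.05 on a log axis for each member in the 48 livers, 1 panel per member, with females (circles) left of males (triangles) and the group median as a line. The lower row shows the female-restricted members, all at or under 4.30 TPM in males, and the drop of Cyp3a44 in females on HFD.

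The female-restricted members were far higher in females than in males on both diets. Cyp3a16, Cyp3a41b and Cyp3a44 passed the filter only through the female libraries, while Cyp3a41a also reached 1 TPM in 12 male libraries. All were grouped by their levels in these same libraries, so their sex differences are a description and no separate test. In vehicle livers on LFD, Cyp3a41a, known in mice as a female-specific liver P450, had a median of 362 TPM in females, with a range of 266 to 639, against a median of 0.532 TPM in males, with a range of 0.388 to 1.10. Cyp3a44, known as a female-predominant member, ranged from 84.6 to 552 TPM in these females, against 0.149 to 0.719 TPM in males. Cyp3a16, known from mouse fetal liver and from females, ranged from 83.6 to 491 TPM in females, against 0.0924 to 0.600 TPM in males. None of these ranges overlapped. The log2 differences, female minus male, were 7.87 (SE 0.25) for Cyp3a41a, 7.08 (SE 0.41) for Cyp3a44, 7.02 (SE 0.36) for Cyp3a16 and 4.87 (SE 0.34) for Cyp3a41b.

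On HFD with vehicle the order among these genes changed. Cyp3a41a remained far apart, at 277 ± 73.0 TPM in females and 0.752 ± 0.277 TPM in males (SD, n = 6 each). Cyp3a44 averaged 9.64 ± 3.90 TPM in females and 0.454 ± 0.250 TPM in males. Its sex difference was 2.81 (SE 0.41) on the log2 scale, the smallest of the 4 in this diet. The lowest female value of Cyp3a44 in the study, 1.97 TPM in exposed HFD female 2, lay below the highest male value, 2.79 TPM in an exposed LFD male.

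The 4 members present in every library differed less between the sexes. On LFD, 3 of these 4 were called higher in females with vehicle, where 23.7% of all genes were called and 17.1% higher in females. The same 3 were called with the mixture, where 21.5% of all genes were called and 16.6% higher. They were Cyp3a11 (log2 1.58 and 1.16), Cyp3a59 (1.70 and 1.66) and Cyp3a13 (0.54 and 0.51). Cyp3a11 ranged from 307 to 517 TPM in vehicle females, against 77 to 304 TPM in vehicle males, without overlap. With trimmed-mean scaling, a rescaling of the libraries, Cyp3a13 was not called, at 0.43 with vehicle (adjusted p = 0.0508) and 0.38 with the mixture (adjusted p = 0.105). Cyp3a25 had log2 differences of 0.36 with vehicle (adjusted p = 0.0520) and 0.30 with the mixture (adjusted p = 0.119). Without the 3 libraries with muscle transcripts, the difference of Cyp3a25 with vehicle was 0.41 and was called (adjusted p = 0.0337).

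On HFD 1 of these 4 was called with vehicle, Cyp3a59 at 0.72 (adjusted p = 0.0325; 0.0706 with no filter on low values), where 11.8% of all genes were called and 3.53% higher. With the mixture limma called 0 of the 4, with 15.3% of all genes called and 5.56% higher. An unadjusted p under 0.05 was found for 2 of the 4 and for 28.2% of all genes. Some settings did call them: Cyp3a59 with trimmed-mean scaling (0.66, adjusted p = 0.0481) and with only the groups compared (0.61, adjusted p = 0.00262), and Cyp3a13 without the muscle libraries (0.42, adjusted p = 0.0346). Cyp3a11 averaged 1219 ± 224 TPM in vehicle females and 852 ± 138 TPM in vehicle males on HFD (SD, n = 6 each; log2 0.51, adjusted p = 0.129). With only the groups compared that difference was called (adjusted p = 0.0278). The sex comparisons with vehicle and mixture use different livers, but they share livers with the comparisons of diet and of mixture.

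Cyp3a11 was higher on HFD in both sexes and with either treatment. In vehicle males it ranged from 722 to 1093 TPM on HFD, with a median of 822, against 76.6 to 304 TPM on LFD, with a median of 134. In vehicle females it ranged from 925 to 1487 TPM on HFD, with a median of 1196, against 307 to 517 TPM on LFD, with a median of 446. The groups did not overlap in any of the 4 comparisons of diet. The log2 changes, HFD minus LFD, were 2.56 (SE 0.22, adjusted p = 2.61e-12) in vehicle males, 2.32 in exposed males, 1.48 (adjusted p = 1.25e-06) in vehicle females and 1.44 in exposed females.

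Cyp3a59 moved in the same direction from a lower level. It averaged 49.4 ± 16.3 TPM on HFD and 10.2 ± 4.00 TPM on LFD in vehicle males, and 79.4 ± 14.7 TPM on HFD and 34.8 ± 10.4 TPM on LFD in vehicle females (SD, n = 6 each). Its log2 changes were 2.18 in vehicle and 2.30 in exposed males, and 1.20 in vehicle and 1.26 in exposed females (SE 0.23 each). Cyp3a25, a member known mainly from liver, was called higher on HFD in all 4 comparisons with smaller changes of 0.90, 0.80, 0.71 and 0.56 in the same order. Cyp3a13 was called in both vehicle comparisons, at 0.60 in males and 0.42 in females. With the mixture its changes were 0.33 in males (adjusted p = 0.0650) and 0.19 in females (adjusted p = 0.408). The call in vehicle females was lost without the muscle libraries (0.33, adjusted p = 0.0785) and with no filter on low values (adjusted p = 0.0596).

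Among the female-restricted members, Cyp3a44 was lower on HFD in females. In vehicle females, Cyp3a44 ranged from 5.82 to 15.0 TPM on HFD, with a median of 8.56, against 84.6 to 552 TPM on LFD, with a median of 186. All 6 HFD females lay below all 6 LFD females. The change was -4.23 on the log2 scale (SE 0.41, adjusted p = 1.80e-10). In exposed females Cyp3a44 ranged from 1.97 to 58.3 TPM on HFD against 90.1 to 289 TPM on LFD, again without overlap, with a change of -2.66 (adjusted p = 5.62e-06). In exposed males, near the floor, it averaged 0.585 ± 0.207 TPM on HFD and 1.78 ± 1.02 TPM on LFD. That change was not called in the main fit, but was with only the groups compared (-0.72, adjusted p = 0.0424).

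Cyp3a16 was also lower on HFD in vehicle females, with a median of 71.7 against 165 TPM, and 4 of the 6 HFD females lay below every LFD female (log2 -1.41, SE 0.36, adjusted p = 0.00258). In exposed females it averaged 144 ± 104 TPM on HFD and 147 ± 40.5 TPM on LFD (SD, n = 6 each; -0.37, adjusted p = 0.518). Cyp3a41a, the most abundant female-restricted member, was not called with diet: its changes in females were -0.49 with vehicle (95% interval -0.99 to 0.01) and -0.21 with the mixture (-0.71 to 0.29). Cyp3a41b, which shares most of its sequence with it, had 0.36 and 0.62, also not called.

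**Figure D4:**
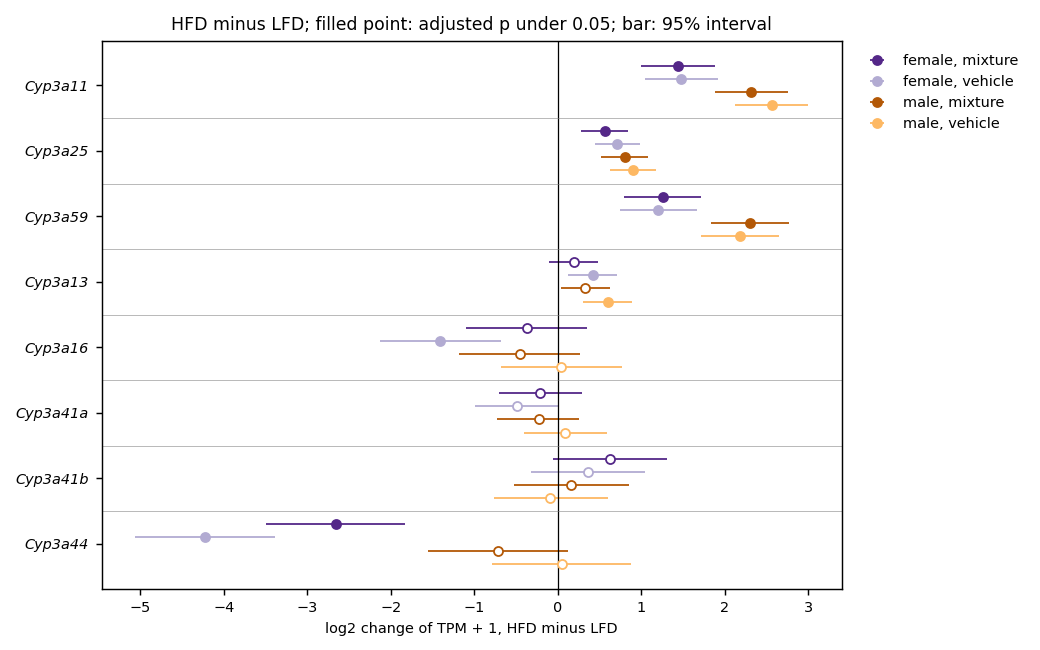
log2 changes of TPM + 1, HFD minus LFD, for the 8 members with 95% intervals, in exposed and vehicle females and exposed and vehicle males. Filled points have an adjusted p under 0.05: Cyp3a11, Cyp3a25 and Cyp3a59 lie right of 0 in all 4 comparisons, and Cyp3a44 lies at -4.23 and -2.66 in females.

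In count, 4 of 8 members were higher and 0 lower on HFD in vehicle males, where 31.4% of all genes were called, 25.6% higher and 5.82% lower. In exposed males 3 were higher and 0 lower, where 38.6% of all genes were called, 31.7% higher and 6.92% lower. In vehicle females 4 were higher and 2 lower, with 28.0% of all genes called, 14.4% higher and 13.5% lower. In exposed females 3 were higher and 1 lower, with 19.2% of all genes called, 11.5% higher and 7.74% lower. The median gene moved by 0.11 in vehicle males and 0.15 in exposed males and by -0.01 and 0.00 in females, well below the changes of Cyp3a11 and Cyp3a59. The labels do not say if animals on HFD and LFD were kept and processed together, so diet cannot be told apart from a cohort that went with it.

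Marker genes of cell types moved with diet too. The hepatocyte sum was lower on HFD without overlap, at 57590 to 83479 TPM in HFD males against 95396 to 142451 TPM in LFD males, and in vehicle females at 81253 to 94250 TPM on HFD against 122079 to 149752 TPM on LFD. Most of that sum was Alb, with a median of 68055 TPM over all libraries, against 10173 TPM for Apoa1, the next highest. The hepatocyte genes were not compared singly by diet, so the lower sum may rest on Alb. The summed level of 7 intestinal markers ranged from 401 to 566 TPM in females and from 402 to 644 TPM in males on HFD, against 202 to 303 TPM in females and 122 to 324 TPM in males on LFD. Between 3 and 5 of the 7 reached 1 TPM in a library. Most of the sum was Fabp2, a fatty acid binding protein that liver also expresses, and the intestinal regulators Cdx1 and Cdx2 stayed at or under 0.715 and 0.778 TPM in every library. Of 4 adipocyte markers, Cidea ranged from 50.9 to 160 TPM in HFD males against 0.126 to 4.12 TPM in LFD males, while Lep was listed at 0 in 11 of 12 HFD males and Adipoq in 6 of 12. In exposed LFD female 3, 1 of the libraries with muscle transcripts, the 4 summed to 131 TPM and 3 of them reached 1 TPM. In vehicle HFD female 1 all 4 reached 1 TPM, with a sum of 15.2 TPM. The part of these transcripts in the Cyp3a differences was not tested.

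The size of the diet effect differed between the sexes for some members. With vehicle, the change on HFD was smaller in females than in males for Cyp3a11, by -1.08 on the log2 scale (SE 0.31, adjusted p = 0.0118), and for Cyp3a59, by -0.98 (adjusted p = 0.0293). For Cyp3a44 the difference was -4.27 (SE 0.59, adjusted p = 2.13e-06) and for Cyp3a16 -1.45 (adjusted p = 0.0402). Both of these passed the filter through females and were under 1 TPM in vehicle males on either diet, so their values restate the change in females. Of the 4 members present in every library 2 were called, beside 18.2% of all genes, 14.8% in this direction. With the mixture the same 2 of 4 were called, Cyp3a11 at -0.88 and Cyp3a59 at -1.05, beside 17.0% of all genes, 13.4% in this direction, and Cyp3a44 had -1.94. The value of Cyp3a44 here also takes in a change near the floor in exposed males, from 1.78 TPM on LFD to 0.585 TPM on HFD. The median gene itself had -0.12 and -0.15 in these 2 comparisons. With trimmed-mean scaling, under which these medians were 0.01 and 0.00, Cyp3a11 and Cyp3a44 remained called with vehicle and 1 member, Cyp3a44, with the mixture. With no filter on low values the adjusted p was 0.0899 for Cyp3a16 and 0.0665 for Cyp3a59 with vehicle, and 0.0880 for Cyp3a11 with the mixture.

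The mixture induced its usual markers in every combination of sex and diet. Cyp1a1, the classical target of the aryl hydrocarbon receptor, averaged 139 ± 51.9 TPM in exposed and 1.73 ± 0.347 TPM in vehicle males on LFD, and 84.8 ± 17.7 TPM in exposed and 1.79 ± 0.474 TPM in vehicle females on LFD (SD, n = 6 each). On HFD it was 4.66 ± 2.47 TPM in exposed and 0.846 ± 0.260 TPM in vehicle males. Few genes were called at all: 6 in LFD males, 15 in HFD males, 6 in LFD females and 2 in HFD females.

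Among the 8 Cyp3a members, 1 was called with the mixture, Cyp3a41a in LFD males, where 0.0379% of all genes were called. Its levels in the 6 exposed males were 1.17, 0.903, 4.30, 4.12, 4.07 and 4.17 TPM, against 0.402, 0.388, 0.638, 0.427, 1.10 and 0.924 TPM in the 6 vehicle males. Of the exposed livers 5 lay above every vehicle liver, and exposed male 2 lay within the vehicle range. The log2 change was 1.22 (SE 0.25, adjusted p = 0.0315). Relative to the mean of females of the same diet and treatment, the exposed males averaged 0.897%, with 1.23% as the highest, and the vehicle males 0.164%.

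This call did not hold under several settings. The adjusted p was 0.0903 with no filter on low values, 0.791 with only the groups compared, 0.0529 without the 3 muscle libraries and 0.106 with Cyp3a41a and Cyp3a41b summed as 1 feature, where the change was 1.19. In HFD males Cyp3a41a had 0.788, 1.02, 3.31, 3.39, 3.13 and 2.93 TPM in exposed livers, against 0.587, 0.445, 0.920, 0.512, 0.903 and 1.15 TPM in vehicle livers. Here 4 exposed livers lay above the vehicle range, and the change of 0.89 (SE 0.25) was not called (adjusted p = 0.182).

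Xist, the X-inactivation transcript that marks female cells, was higher in the same exposed males as Cyp3a41a. In exposed LFD males 1 to 6 it stood at 0.277, 0.326, 1.03, 0.667, 1.17 and 0.886 TPM, against 0.471, 0.0624, 0.473, 0.302, 0.165 and 0.792 TPM in vehicle LFD males. The 4 exposed livers with over 4 TPM of Cyp3a41a were thus those with the higher Xist values of their group. Vehicle LFD males did not all show this: vehicle male 5 had the highest Cyp3a41a of its group with 0.165 TPM of Xist. In vehicle HFD males 1 to 6 Xist stood at 0.502, 0.102, 0.567, 0.236, 0.270 and 0.543 TPM. In that group males 2 and 4 were lowest, and males 3 and 6 highest, for both Xist and Cyp3a41a. As a percentage of the female mean of the same diet and treatment, exposed LFD males averaged 0.981% for Xist, 0.897% for Cyp3a41a, 0.980% for Cyp3a16, 0.974% for Cyp3a41b and 1.14% for Cyp3a44. Vehicle LFD males averaged 0.545% for Xist and between 0.164% and 0.388% for these 4 members. On HFD the exposed males averaged 1.04% for Xist, 0.782% for Cyp3a41a, 0.871% for Cyp3a41b, 0.507% for Cyp3a16 and 1.99% for Cyp3a44. The vehicle HFD males averaged 0.557% for Xist, 0.272% for Cyp3a41a, 0.204% for Cyp3a41b, 0.583% for Cyp3a16 and 4.71% for Cyp3a44, so the last 2 were not higher in exposed males on this scale. In a fit of the 24 male libraries the change of Cyp3a41a was 1.22 (adjusted p = 0.322), and with Xist as a covariate it was 0.83 (adjusted p = 0.448). Cyp1a1 in those fits changed by 5.60 and 5.57. Whether RNA from female livers entered the male libraries was not tested.

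**Figure D5:**
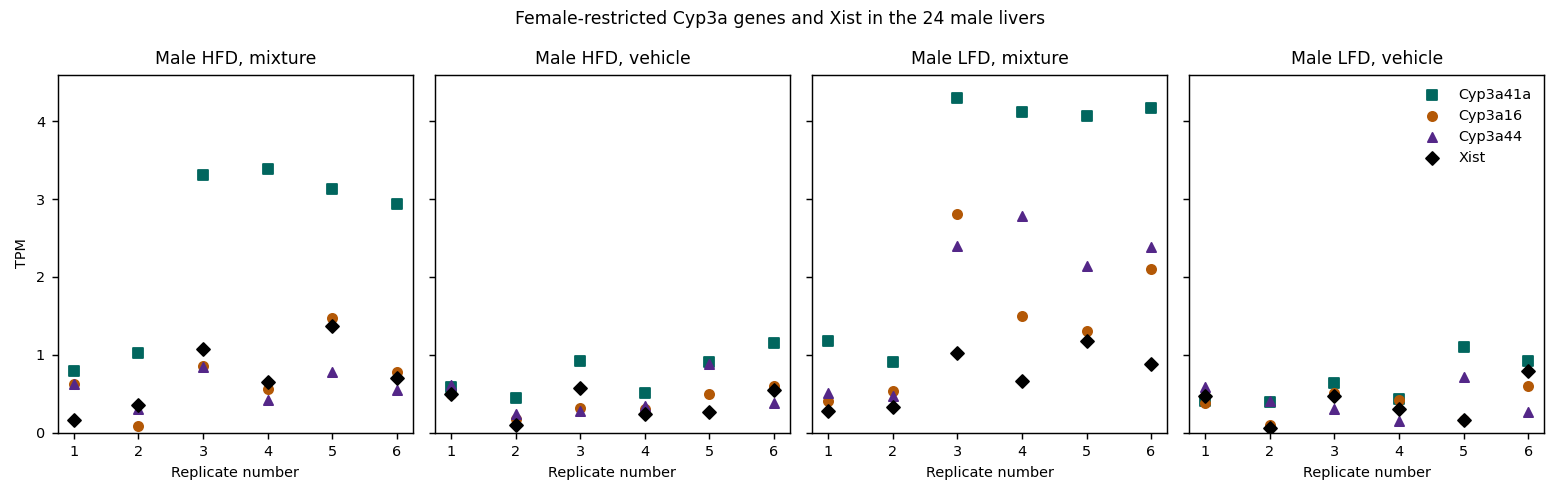
TPM of Cyp3a41a, Cyp3a16, Cyp3a44 and Xist in each of the 24 male livers, by replicate number, with exposed groups left of their vehicle groups. Cyp3a41a exceeds 4 TPM in 4 exposed LFD males and 2.9 TPM in 4 exposed HFD males, and Xist is higher in those livers than in the other 2 of the same group.

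In the other 3 comparisons of the mixture limma called 0 of 8 members. The numbers with an unadjusted p under 0.05 were 1 in HFD males, 0 in LFD females and 2 in HFD females, beside 9.39%, 9.50% and 4.24% of all genes with such a p. Of all genes 0.0948%, 0.0379% and 0.0126% were called. No member of both sexes was called with the mixture in any combination of sex and diet, which does not show that their levels were equal. Cyp3a11 averaged 425 ± 74.4 TPM in exposed and 436 ± 77.8 TPM in vehicle LFD females, with a change of -0.03 and a 95% interval of -0.47 to 0.41. In LFD males it averaged 199 ± 79.2 TPM in exposed and 159 ± 84.3 TPM in vehicle livers, with a change of 0.39 and an interval of -0.05 to 0.83. The widest unadjusted change was that of Cyp3a44 in HFD females, which stood at 30.1, 1.97, 25.9, 29.9, 58.3 and 30.7 TPM in exposed livers, against 10.5, 13.3, 6.66, 15.0, 5.82 and 6.55 TPM in vehicle livers. There 5 of 6 exposed livers lay above every vehicle liver and 1 lay below all of them (log2 1.19, SE 0.41, adjusted p = 1).

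Averaged over the 4 combinations of sex and diet, 0 of 8 members were called by limma, beside 0.0948% of all genes. An unadjusted p under 0.05 was found for 3 members and 11.7% of all genes. Cyp3a41a came nearest, at 0.53 (SE 0.12, adjusted p = 0.0838), and was called with a pseudocount of 0.1 (0.85, adjusted p = 0.0136). The difference of the mixture effect between diets was called for 0 members in either sex, beside 0.00632% of all genes in each. The unadjusted p was under 0.05 for 0 members in males and 2 in females, beside 7.32% and 4.64% of all genes. The difference between sexes was called for 0 members on either diet, beside 0% of all genes. The unadjusted p was under 0.05 for 3 members on LFD and 1 on HFD, beside 4.25% and 4.68% of all genes. These comparisons share libraries with those of sex and diet.

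Regulators of the family were measured alongside it, in a list of 16 genes of which 15 were tested. On HFD 2 were higher and 4 lower in vehicle males, where 31.4% of all genes were called, and 4 were higher and 3 lower in vehicle females, where 28.0% were. Nr1i3, which encodes CAR, was higher on HFD with vehicle in both sexes, by 0.79 in males and 0.66 in females. In exposed livers its changes with diet were 0.15 in males and 0.31 in females (adjusted p = 0.599 and 0.297). Nr1i3 was higher in females than in males in all 4 comparisons of sex, by 0.76 to 0.99. Nr1i2, which encodes PXR, was not called with diet, at 0.28 in vehicle males and -0.19 in vehicle females. Hnf4a, a hepatocyte transcription factor, was lower on HFD in all 4 comparisons, by -0.33 to -0.67. None of the 15 was called with the mixture in any of its 4 comparisons or on average. Without a call, Nr1i3 was higher with the mixture on LFD, by 0.65 in males (adjusted p = 0.572) and 0.59 in females (adjusted p = 0.324). In LFD females all 6 exposed livers lay above every vehicle liver for Nr1i3. On HFD its changes with the mixture were 0.01 in males and 0.24 in females, and the average change was 0.37 (adjusted p = 0.126).

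Other known targets of PXR and CAR were higher on HFD in larger numbers than they were lower. Of 24 tested, 18 were higher and 0 lower in vehicle males, beside 25.6% of all genes higher and 5.82% lower. Their median change was 1.07 against 0.11 over all genes. In vehicle females 15 were higher and 0 lower, beside 14.4% and 13.5% of all genes, with a median of 0.75 against -0.01. With the mixture 16 were higher and 1 lower in males, beside 31.7% and 6.92% of all genes. In exposed females 16 were higher and 0 lower, beside 11.5% and 7.74%. Cyp2b9, a P450 of this list, averaged 159 ± 128 TPM on HFD and 1.46 ± 0.365 TPM on LFD in vehicle males. Gsta2, a glutathione transferase, averaged 51.4 ± 8.60 TPM on HFD and 6.02 ± 1.55 TPM on LFD in vehicle females (SD, n = 6 each). Cyp2b9, Cyp2b13, Sult1e1 and Sult2a1 also stand in the list of female-biased genes below, so the counts of these lists are not separate observations. The 8 genes of electron supply and heme included Cyb5a, the cytochrome b5 that passes electrons to P450 enzymes. It was higher on HFD in all 4 comparisons of diet, by 0.35 to 0.98, and higher with the mixture on LFD, by 0.50 in males and 0.48 in females. Por, the P450 reductase, was the only member of that list called between the sexes on LFD with vehicle, at 1.14 higher in females.

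Of 15 male-biased genes, 14 were lower on HFD in vehicle males and 15 in exposed males, with medians of -1.57 and -1.50 against 0.11 and 0.15 over all genes, of which 5.82% and 6.92% were lower. In females 4 of the 15 were higher and 4 lower with vehicle, beside 14.4% and 13.5% of all genes. With the mixture 5 were higher and 0 lower, beside 11.5% and 7.74%. Of 19 female-biased genes, 10 were higher and 0 lower on HFD in vehicle males, beside 25.6% of all genes higher. In vehicle females 5 of these 19 were higher and 4 lower on HFD, beside 14.4% and 13.5% of all genes, and Sult3a1, a sulfotransferase, was among the lower ones at -2.07. None of the 19 was called with the mixture in LFD males, where their median was 0.63. In HFD males 2 were called higher, Sult2a2 at 1.68 and Sult2a1 at 1.51. The growth hormone list held 14 genes, of which 4 were higher and 2 lower on HFD in vehicle males, beside 25.6% and 5.82% of all genes, among them Cish at -1.20, a feedback inhibitor of STAT5 signalling.

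Likeness of pattern was measured as the root mean square difference between group means of log2(TPM + 1), each gene centred over the 8 groups. Cyp3a11 and Cyp3a59 were nearer to each other (0.21) than to any gene outside the family that met the naming rule, the nearest of which were Cd36 at 0.29 for Cyp3a11 and Slc22a29 at 0.26 for Cyp3a59. Among the female-restricted members, Cyp3a16 was most like A1bg (0.15), Cyp3a41a most like Cyp2c69 (0.24), Cyp3a41b most like Xist (0.36) and Cyp3a44 most like Sult3a1 (0.71). Cyp3a13 was most like Dpys (0.06) and Cyp3a25 most like Laptm4b (0.05). These are descriptions of 8 group means from the same libraries. Zscan25, which lies before Cyp3a57 at the edge of the cluster, ranged from 5.06 to 9.98 TPM over the 48 libraries.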

How the data were processed

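Liver poly(A) RNA of 48 mice was measured in 8 groups of 6. The deposited values are TPM, made by the authors per library. The submitters' processing notes name GRCm38 and the tools STAR 2.5.2b, Trimmomatic 0.36, FastQC and DESeq2. How reads were counted, with which annotation, gene lengths and strand setting, is not stated in the labels. Each column sums to 1000000, so TPM keeps no depth, the depth per library is unknown, and no interval or limit that needs it is given.

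The model was fitted to log2(TPM + 1) by limma 3.58.1 (R 4.3.3), with an intensity trend, on genes at 1 TPM or more in at least 6 libraries. One model of 8 group means had 40 residual degrees of freedom. Benjamini-Hochberg adjustment ran over 15820 genes within each of 19 comparisons. On the log2(TPM + 1) scale the change of low genes is understated. No label names a batch or ties libraries to separate cages or runs, so p-values reflect library-to-library spread, which may be technical. The procedure was tested on simulated data.

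All 8 members are named whatever their values. Other genes are the receptors, exposure and sex checks, up to 3 called genes per list with the largest change, and the nearest genes by pattern. Members and lists were chosen with earlier results of these data known. Alternatives were trimmed-mean scaling (an unweighted trimmed mean of log2 ratios), no filter, a pseudocount of 0.1, fits restricted to the compared groups, and a block for replicate number. Chosen after seeing the data were fits without 3 libraries with muscle transcripts, with Cyp3a41a and Cyp3a41b summed, and of the 24 male libraries with and without Xist. Coordinates and transcripts are from GENCODE M21 and promoters from RefSeq on GRCm38.p6, aligned with Biopython 1.88.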

Additional observations from a re-analysis of the deposited data

Results flagged for a closer look

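Of 64 sets of 6 values, 8 members in 8 groups, 4 held a liver far from the other 5 by Dixon's 95% criterion, which chance meets in about 1 set in 20. Vehicle LFD female 2 stood high for 3 female-restricted members. It had 491 TPM of Cyp3a16, against 83.6 to 222 TPM in the other 5 livers. It had 639 TPM of Cyp3a41a, against 266 to 381 TPM, and 117 TPM of Cyp3a41b, against 13.8 to 43.7 TPM. The same liver had the highest Cyp3a44 of its group, 552 TPM against 84.6 to 283 TPM, though this did not meet the criterion. It also had the lowest Cyp3a11 of its group, 307 TPM. Exposed HFD female 2 had 104 TPM of Cyp3a59, against 67.6 to 77.8 TPM in the other 5 livers of its group, and the lowest Cyp3a44 of its group, 1.97 TPM.

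The effect of HFD differed between females and males by the test of the difference itself. With vehicle the differences, female minus male, were -1.08 for Cyp3a11, -1.45 for Cyp3a16, -4.27 for Cyp3a44 and -0.98 for Cyp3a59. Cyp3a16 and Cyp3a44 were under 1 TPM in vehicle males on both diets, so their values restate the change in females. With the mixture the differences were -0.88 for Cyp3a11, -1.94 for Cyp3a44 and -1.05 for Cyp3a59. For Cyp3a44 this value also takes in a change near the floor in exposed males, from 1.78 TPM on LFD to 0.585 TPM on HFD.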

How the results depend on the processing

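Over 152 pairs of member and comparison, 963 alternative values were computed: 922 kept their direction and side of the threshold, 21 lost the call, 11 gained it and 9 turned direction. The 9 were called in neither fit. With trimmed-mean scaling Cyp3a25 became -0.03 with the mixture in HFD males and -0.01 on average, Cyp3a59 -0.02 on average, and Cyp3a13 0.04 for the sex difference of the diet effect with the mixture. Without the muscle libraries Cyp3a59 became 0.01 with the mixture in LFD females, -0.02 for its difference between diets in females and 0.02 for its difference between sexes on LFD. With Xist as a covariate Cyp3a59 became 0.05 in LFD males and Cyp3a44 -0.03 in HFD males.

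The 1 member called with the mixture in LFD males became 0 with no filter, only the groups compared, no muscle libraries, and the 24 male libraries with or without Xist. The 0 called on average became 1 with a pseudocount of 0.1. For the sex difference of the diet effect, 4 members with vehicle became 2 with trimmed-mean scaling or no filter. With the mixture 3 became 1 with trimmed-mean scaling. Calls over all genes fell too: with vehicle from 2887 to 2100 with trimmed-mean scaling and 2191 with no filter. With the mixture they fell from 2694 to 2056 with trimmed-mean scaling. For Cyp3a44 with the mixture the adjusted p was 0.143 with a pseudocount of 0.1 and 0.0512 with only the groups compared. The cause of these losses was not tested.

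Over all genes, deviations of same-numbered libraries correlated at a median of 0.013 over 168 pairs, against -0.005 over 840 other pairs. Correlations over 0.1 were found for 25 of the 168 pairs and 79 of the 840. Such a median cannot show whether single genes or libraries go with replicate number. Xist in exposed males 1 to 6 was 0.277, 0.326, 1.03, 0.667, 1.17 and 0.886 TPM on LFD. On HFD it was 0.159, 0.353, 1.07, 0.652, 1.37 and 0.697 TPM, and the cause of this likeness was not tested. With the replicate block 1 member was again called with the mixture in LFD males, and 4 in place of 3 on HFD in exposed males. Between the sexes 8 in place of 7 were called on LFD with vehicle. On HFD 6 in place of 5 were called with vehicle and 5 in place of 4 with the mixture. These counts between the sexes include the 4 female-restricted members. The gained calls were Cyp3a25 between the sexes on LFD with vehicle and Cyp3a13 in the other comparisons. No other count moved. Depth is unknown, so the precision of values near 0 in males cannot be given.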

Other observations

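Rows named Cyp3a outside the 8 members were Cyp3a57 and the pseudogene Cyp3a63-ps. Cyp3a57, at the edge of the cluster, reached 1 TPM in 0 of 48 libraries and at most 0.791 TPM, in vehicle LFD female 2. Cyp3a63-ps lies between Cyp3a41b and Cyp3a41a and reached 1 TPM in all 24 female and 0 male libraries. It averaged 10.7 ± 3.40 TPM in exposed and 8.50 ± 3.44 TPM in vehicle females on HFD, and 7.20 ± 3.40 TPM in exposed and 4.87 ± 2.33 TPM in vehicle females on LFD (SD, n = 6 each).

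Other genes of female liver stood high in the same exposed LFD males as Cyp3a41a. A1bg had 0.622, 0.583, 2.43, 3.24, 3.37 and 3.14 TPM in exposed LFD males 1 to 6, against 0.263 to 1.04 TPM in vehicle LFD males. Cyp2c69 had 1.76, 1.80, 6.45, 6.02, 7.36 and 6.83 TPM in the exposed livers, against 0.812 to 2.79 TPM in the vehicle livers.

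Adrenal transcripts stood apart in 2 libraries: 6 adrenal genes summed to 1126 TPM in exposed LFD female 3 and to 65.6 TPM in exposed LFD male 6, against at most 6.78 TPM in any other library.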
